A study of Mus musculus with 7 samples.

Results

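The 50 genes described here encode the contractile apparatus, the fiber-type isoforms, the calcium-release machinery, the energy enzymes and the myogenic regulators of skeletal muscle, and were followed in 7 mouse skin papillomas. They were chosen by symbol from 23122 measured genes, and all 50 were found in every papilloma with an accepted estimate. The list was drawn up knowing that many of these genes were high in 1 papilloma, so their levels and their differences between groups are a description and not a test. Papillomas came from 4 CTR and 3 TG mice of C57Bl/6 background, each from a different animal. Both groups carried the *tetO-Nanog* allele, received doxycycline in the drinking water at 2 mg/ml, and were treated with the mutagen DMBA and then the tumor promoter TPA. TG mice also carried *K5-rtTA*, in which the keratin 5 promoter drives the transactivator in basal cells of stratified epithelia, and CTR mice lacked it. Both genotypes were matched for age and entered the protocol as young adults by the study's methods, while the sample labels give no age. Papillomas were taken either when the observation period after TPA had run out or earlier, when a mouse had to be killed, and the sources used here do not say which applied to each.

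Striated muscle contracts when myosin thick filaments pull on actin thin filaments within the sarcomere, under control of calcium that binds troponin. Adult fibers differ in the isoforms they use. Fast fibers carry the myosin heavy chains of *Myh4*, *Myh1* and *Myh2* with fast troponins and light chains, slow fibers carry *Myh7* with slow partners, and developing or regenerating fibers use *Myh3* and *Myh8*. The transcription factors MYOD1, MYOG and MYF6 direct the formation and upkeep of muscle fibers. In the trunk skin of the mouse, a thin sheet of striated muscle, the panniculus carnosus, lies beneath the dermis and its fat.

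*Nanog*, the targeted gene, had 2.70, 2.84, 12.7 and 3.34 FPKM in CTR 1 to CTR 4, and 36.9, 57.4 and 66.9 FPKM in TG 1, TG 2 and TG 3, so the labels and this gene matched. Its limma adjusted p was 0.400 over all 7 papillomas. Leaving out 1 papilloma gave between 0.00364, without CTR 3, and 0.775, without TG 2, with 0.0756 without TG 3, and sample quality weights gave 0.0320. FPKM counts fragments relative to transcript length and to the mapped total of the library, so levels of different genes can be compared on it. The files list no read numbers, but the intervals that Cufflinks gave implied between 10074859 and 15710562 reads per papilloma. TG 3 stood apart from the rest. Across tested genes its correlation with the other papillomas on the log2 scale lay between 0.903 and 0.937, against 0.945 to 0.977 among the others, where genes are not independent replicates. TG 3 also held the highest of the 7 values for 41.4% of all genes with any signal. Its median FPKM over all measured genes was 1.135, against 0.539 to 0.673 in the other 6. The ratios of TG 3 to other papillomas given below are not corrected for this, which weighs most on small ratios. The comparison between TG and CTR papillomas is therefore also given without TG 3. These are bulk samples, in which fewer cells of a type and less RNA per cell cannot be told apart.

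The 3 adult fast myosin heavy chain genes lie side by side on chromosome 11 and are so alike that short reads can be shared among them, which bears on how their levels are read. In GENCODE M21 transcripts on GRCm38, their coding exons of equal length (36 of 38, 5436 bases) were 91.2% identical between *Myh1* and *Myh2*, the closest pair, and 88.2% between *Myh2* and *Myh4*, the most distant. Of all stretches of 40 bases, the read length, 30.9% of those in *Myh1*, 32.6% in *Myh2* and 24.0% in *Myh4* also occurred in another gene elsewhere. A stretch of 60 bases shown here is the same in all 3 genes. It lies in exon 14 of *Myh1* (chr11:67206531-67206590), exon 13 of *Myh2* (chr11:67179553-67179612) and exon 13 of *Myh4* (chr11:67245718-67245777), all on the plus strand and coding.
All 3 genes: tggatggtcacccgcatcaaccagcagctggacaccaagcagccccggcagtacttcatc
The coding window of 60 bases that differed most had 24 positions, in capitals, at which the 3 genes were not all the same. It lies in exon 29 of *Myh1* (chr11:67217464-67217523), exon 28 of *Myh2* (chr11:67191348-67191407) and exon 28 of *Myh4* (chr11:67254458-67254517).
Myh1: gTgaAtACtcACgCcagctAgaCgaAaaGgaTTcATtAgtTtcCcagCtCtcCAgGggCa
Myh2: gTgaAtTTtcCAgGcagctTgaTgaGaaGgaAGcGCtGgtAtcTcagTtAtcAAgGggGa
Myh4: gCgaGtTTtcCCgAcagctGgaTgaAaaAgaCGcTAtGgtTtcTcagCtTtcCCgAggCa
Reads over the first window cannot be given to 1 of the genes, while reads over the second can.

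The promoters of members were read from RefSeq (GRCm38.p6), as 250 bases before to 50 bases after the start. A promoter was found for 37 of the 50 genes. 3 were chosen to show the letters that muscle factors are known to bind near genes that moved together here. Capitals mark the E-box CANNTG, the MEF2 consensus and the CArG box, searched on both strands.
Ckm: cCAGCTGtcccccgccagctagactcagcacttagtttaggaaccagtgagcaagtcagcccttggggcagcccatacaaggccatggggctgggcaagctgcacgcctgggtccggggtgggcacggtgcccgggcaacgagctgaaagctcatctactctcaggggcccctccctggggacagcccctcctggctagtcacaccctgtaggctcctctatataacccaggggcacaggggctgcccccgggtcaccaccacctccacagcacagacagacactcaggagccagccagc
Acta1: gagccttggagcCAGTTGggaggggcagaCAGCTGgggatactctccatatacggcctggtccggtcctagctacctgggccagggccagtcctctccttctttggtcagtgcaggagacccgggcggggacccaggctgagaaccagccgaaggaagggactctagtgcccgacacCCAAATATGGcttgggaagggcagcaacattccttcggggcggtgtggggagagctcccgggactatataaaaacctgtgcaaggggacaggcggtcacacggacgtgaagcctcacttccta
Myh4: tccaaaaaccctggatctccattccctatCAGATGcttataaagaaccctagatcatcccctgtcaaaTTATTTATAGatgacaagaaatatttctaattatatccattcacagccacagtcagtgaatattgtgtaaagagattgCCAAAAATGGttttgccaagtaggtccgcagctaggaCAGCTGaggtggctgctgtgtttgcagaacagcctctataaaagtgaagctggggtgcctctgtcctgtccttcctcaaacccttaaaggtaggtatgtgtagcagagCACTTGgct
These lie at chr7:19410844-19411143 on the plus strand, chr8:123894726-123895025 on the minus strand and chr11:67237562-67237861 on the plus strand. The start used for *Myh4* lies 217 bases from the gene start in the deposited files. That used for *Myl2*, also among the 37, lies 7791 bases away. CANNTG occurred in 31 of the 37 member promoters and in 72.3% of all 27025 promoters. Its form CAGCTG, counted within CANNTG as well, occurred in 16 member promoters against 16.2% of all. The MEF2 consensus occurred in 7 member promoters against 3.24%, and the CArG box in 5 against 1.54%. These are matches of letters, and no binding was measured.

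Most of the skeletal muscle genes were high in TG 3 and at traces in the other 6 papillomas. The summed FPKM of the 50 genes was 12.4, 14.3, 18.2 and 14.2 in CTR 1 to CTR 4, 12.6 in TG 1 and 15.2 in TG 2, and 1155 in TG 3. In TG 3 this sum was 0.342% of the FPKM of all genes. 49 of the 50 genes had their highest value in TG 3, where 39 reached 1 FPKM, against 2 to 4 of them in any other papilloma. The exception was *Myl3*. Of the 7393 genes with at least 5 FPKM in TG 3, 0.825% were at least 10 times above the highest of the other papillomas. 25 members had at least 5 FPKM and 24 of these passed that bound, all except *Tnni2*, and since the list was drawn up from this pattern the count supports nothing.

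**Figure D1:**
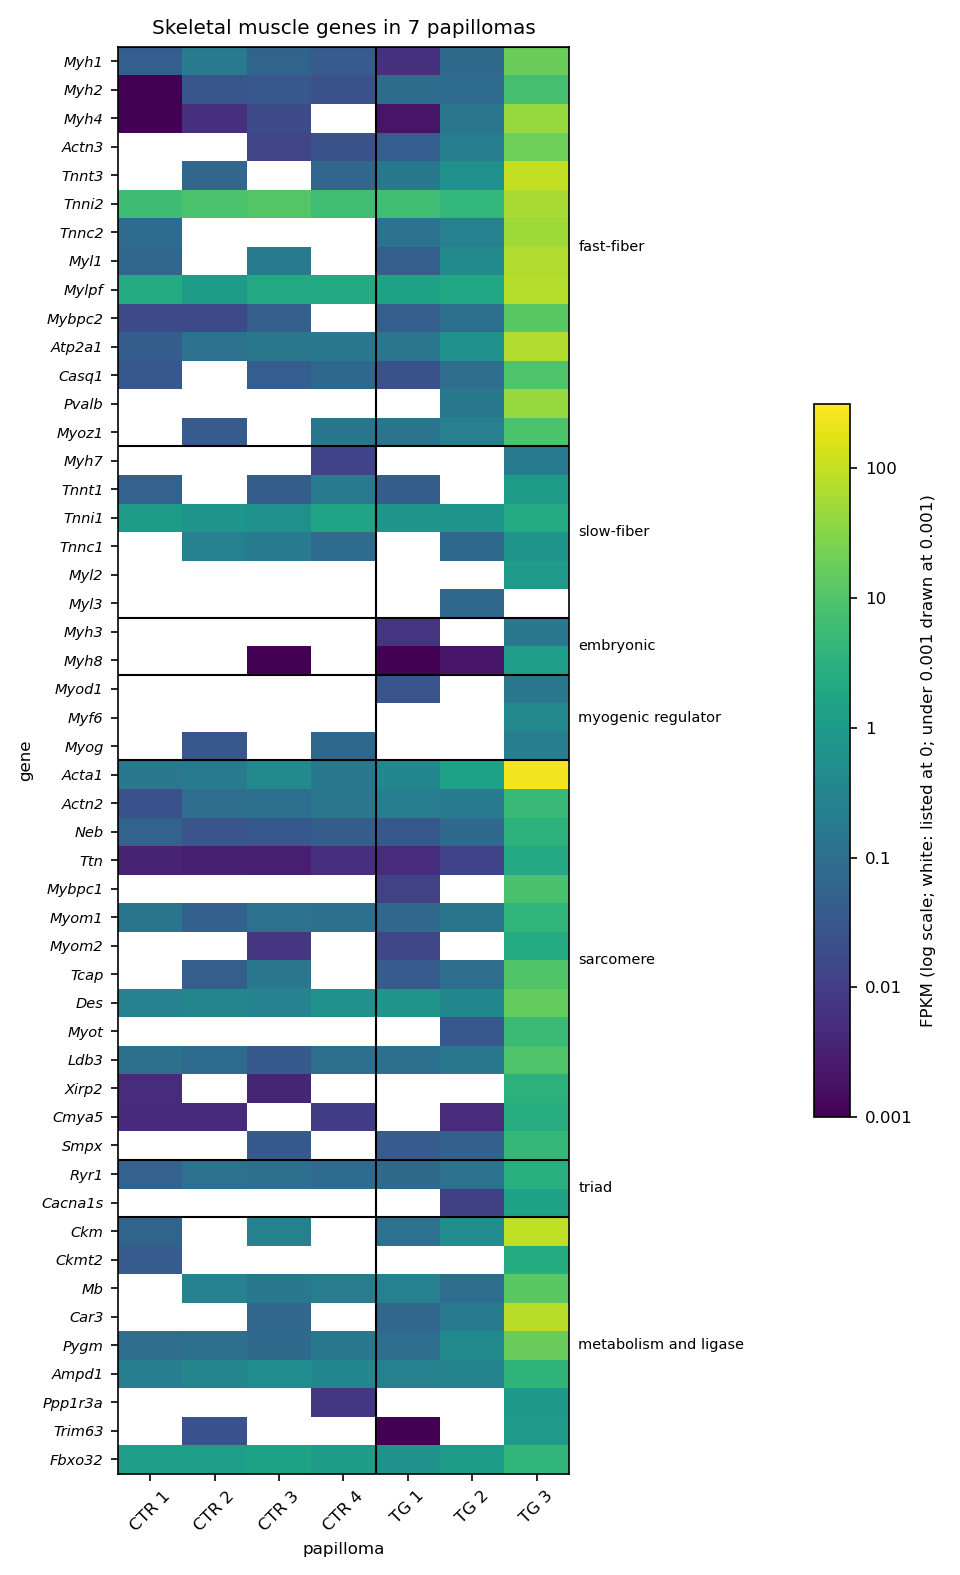
FPKM of the 50 skeletal muscle genes (rows, in 7 groups by role) in each of the 7 papillomas (columns), on a logarithmic color scale on which white stands for a value listed at 0 and other values under 0.001 are drawn at 0.001. The TG 3 column is bright through the fast-fiber, sarcomere and metabolism groups and darker in the slow-fiber, embryonic and regulator groups, while *Tnni2*, *Mylpf*, *Tnni1* and *Fbxo32* have at least 0.5 FPKM in all 7 papillomas.

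Fast-fiber genes carried the highest group median in TG 3, 44.6 FPKM over 14 genes. *Myh4*, which encodes the fastest heavy chain (type IIb), had 0.00108, 0.00593, 0.0178 and 0 FPKM in CTR 1 to CTR 4, 0.00204 in TG 1 and 0.145 in TG 2, against 45.03 FPKM in TG 3 (Cufflinks 95% interval 43.6 to 46.4). *Myh1*, the type IIx chain, had 18.1 FPKM in TG 3 and at most 0.198 elsewhere. *Myh2*, the type IIa chain, had 7.46 FPKM in TG 3 and at most 0.0881 elsewhere. The order of these chains in TG 3 was therefore *Myh4*, *Myh1*, *Myh2*, with intervals that did not overlap, and they made up 62.4%, 25.04% and 10.3% of the summed FPKM of the 6 heavy chains on the list. Such an interval holds the counting error of its own library only.

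The partners of the fast heavy chains were at similar levels in TG 3. *Tnnt3*, the fast troponin T that anchors the complex on tropomyosin, was listed at 0 in CTR 1 and CTR 3 and had 0.0656 FPKM in CTR 2, 0.0669 in CTR 4, 0.168 in TG 1 and 0.590 in TG 2, against 98.2 in TG 3. *Tnnc2*, the fast calcium sensor, had 0.0832 FPKM in CTR 1, 0.122 in TG 1 and 0.245 in TG 2, against 51.2 in TG 3, and was listed at 0 in the other CTR papillomas. Of its stretches of 40 bases, 61.7% also lie in transcripts of the overlapping gene *Ube2c*. The light chain genes *Myl1* and *Mylpf* had 71.7 and 76.3 FPKM in TG 3, a ratio of *Mylpf* to *Myl1* of 1.06. *Mylpf* had signal in every papilloma, with 2.47, 1.03, 2.24 and 2.19 FPKM in CTR 1 to CTR 4, 1.44 in TG 1 and 1.96 in TG 2. *Myl1* was at most 0.424 FPKM outside TG 3, and 17.8% of its stretches of 40 bases also occur in the pseudogene *Mylf-ps*.

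*Tnni2*, the fast troponin I, stood out from the other fast genes. It had 6.24, 8.88, 10.8 and 6.44 FPKM in CTR 1 to CTR 4, 6.41 in TG 1 and 4.30 in TG 2, against 61.3 in TG 3. TG 3 was 5.69 times above the highest other value for *Tnni2*, against 166 times for *Tnnt3* and 209 times for *Tnnc2*. *Tnni2* and *Tnnt3* are neighbors on chromosome 7, from 142442468 to 142444405 and from 142498836 to 142516009, and no stretch of 40 bases in *Tnni2* occurred in another gene.

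The remaining fast-fiber genes were also highest in TG 3. *Atp2a1*, the calcium pump of the fast sarcoplasmic reticulum, had between 0.0417 and 0.161 FPKM in CTR papillomas, 0.142 in TG 1 and 0.567 in TG 2, against 70.0 in TG 3. *Pvalb*, a soluble calcium buffer of the fastest fibers, was listed at 0 in all CTR papillomas and in TG 1, and had 0.163 FPKM in TG 2 and 44.1 in TG 3. *Actn3*, the Z-disc actinin restricted to fast fibers, had 19.5 FPKM in TG 3 and at most 0.224 elsewhere, and exceeded *Actn2*, the actinin of all fibers, by 3.79 times in TG 3. *Mybpc2*, *Casq1* and *Myoz1*, which encode fast myosin-binding protein C, the calcium store protein of the reticulum and a Z-disc linker, had 12.3, 9.80 and 8.75 FPKM in TG 3. Their highest values elsewhere were 0.101, 0.0924 and 0.249 FPKM, each in TG 2.

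Slow-fiber genes were low in TG 3 beside their fast counterparts. *Myh7*, the slow heavy chain, had 0.176 FPKM in TG 3 (95% interval 0.0818 to 0.270) and 0.0131 in CTR 4, and was listed at 0 in the other 5 papillomas. *Myl2*, the slow regulatory light chain, had 0.929 FPKM in TG 3 and was listed at 0 in the other 6. *Tnnt1* had 0.994 FPKM and *Tnnc1* 0.735 FPKM in TG 3, and their highest values elsewhere were 0.176 and 0.250. The interval of *Tnnc1* in TG 3 (0.245 to 1.23) reached down to the value in CTR 2, so TG 3 and CTR 2 were not told apart for this gene. *Tnni1*, the slow troponin I, had 0.969, 0.757, 0.571 and 1.59 FPKM in CTR 1 to CTR 4, 0.772 in TG 1 and 0.786 in TG 2, against 2.40 in TG 3, which is 1.51 times the value in CTR 4. The intervals of *Tnni1* in TG 3 (1.64 to 3.17) and in CTR 4 (0.940 to 2.24) overlapped. *Myl3*, the slow essential light chain, was listed at 0 in TG 3 and had 0.0694 FPKM in TG 2.

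Fast and slow isoforms of 6 filament subunits were set side by side within TG 3. The fast share of their summed FPKM was 98.8%, and it lay between 98.1% and 99.4% when the interval bounds of the genes were combined at their extremes. Per subunit it was 99.8% for the heavy chain, 98.8% for the regulatory light chain, 99.0% for troponin T, 98.6% for troponin C and 96.2% for troponin I, and for the essential light chain the slow gene was listed at 0. Without the heavy chains, whose reads can be shared, it was 98.6%. Myosin-binding protein C was not among the 6 subunits, and there fast *Mybpc2* exceeded slow *Mybpc1* by only 1.51 times in TG 3. The fast over slow ratio of FPKM was 401 for the heavy chain and 25.5 for troponin I, the subunit whose isoforms both had signal in all papillomas. In the other 6 papillomas the share was between 82.5% and 94.4%, set mostly by *Tnni2*, *Mylpf* and *Tnni1*, and only troponin I had signal of both isoforms in every one of them.

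**Figure D2:**
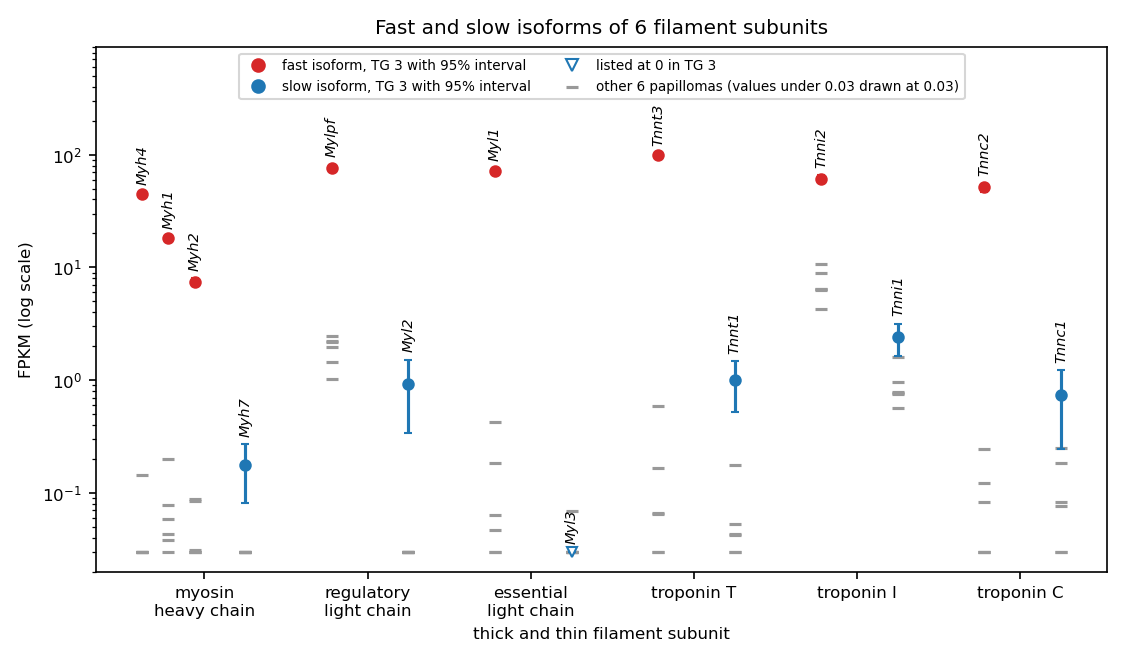
FPKM (logarithmic axis) of the fast (red) and slow (blue) isoforms of 6 filament subunits in TG 3 with their Cufflinks 95% intervals, and in the other 6 papillomas as gray dashes, with values under 0.03 drawn at 0.03. Each fast isoform in TG 3 lies above its slow counterpart, and troponin I alone has dashes above 4 FPKM outside TG 3.

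The embryonic and neonatal heavy chains were detected at low levels in TG 3. *Myh8*, the neonatal chain, had 1.23 FPKM in TG 3 (95% interval 0.995 to 1.46), or 1.70% of the 6 heavy chains, and at most 0.00219 FPKM elsewhere. Of its stretches of 40 bases, 20.5% also occur in other genes, most often in *Myh2*. *Myh3*, the embryonic chain, had 0.163 FPKM in TG 3, 0.00723 in TG 1 and was listed at 0 in the other 5.

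The myogenic regulators were near the limit of detection even in TG 3. *Myf6* (MRF4), the regulator most tied to mature fibers, had 0.397 FPKM in TG 3, implied by 8 reads, and was listed at 0 in the other 6 papillomas. *Myog*, which drives the fusion stage, had 0.225 FPKM in TG 3, 0.0306 in CTR 2 and 0.0738 in CTR 4. *Myod1*, which commits cells to muscle, had 0.157 FPKM in TG 3 from 3 implied reads, with an interval that reached 0, and 0.0280 in TG 1. The intervals of the 3 regulators overlapped in TG 3, so no order among them was told apart.

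Sarcomere genes that fibers of either type use spanned 2.12 to 251 FPKM in TG 3. All 14 were at least 10 times above the other papillomas, beside 3.5% of all genes with signal in TG 3. Since the list was drawn up from this pattern, that count supports nothing. *Acta1*, the actin of the thin filament, had 0.162, 0.197, 0.409 and 0.171 FPKM in CTR 1 to CTR 4, 0.361 in TG 1 and 1.41 in TG 2, against 251 in TG 3, the highest level of any member. The giant filament proteins were among the low ones. *Ttn*, the titin spring, had 2.12 FPKM in TG 3 and at most 0.0128 elsewhere, and *Neb*, the nebulin ruler of the thin filament, had 3.53 FPKM in TG 3 and at most 0.0770 elsewhere. *Des*, the intermediate filament of all muscle types, had 0.273, 0.311, 0.278 and 0.601 FPKM in CTR 1 to CTR 4, 0.712 in TG 1 and 0.361 in TG 2, against 15.6 in TG 3. *Tcap*, which caps titin at the Z-disc, had 10.3 FPKM in TG 3 and at most 0.150 elsewhere, and *Ldb3*, a Z-disc adaptor, had 9.60 FPKM in TG 3 and at most 0.161 elsewhere. *Mybpc1*, the slow myosin-binding protein C, was an exception among slow-type proteins. It had 8.14 FPKM in TG 3, where *Mybpc2* exceeded it by only 1.51 times, 0.0113 in TG 1, and was listed at 0 in the other 5. The remaining genes of this group, *Actn2*, *Myom1*, *Myom2*, *Myot*, *Xirp2*, *Cmya5* and *Smpx*, had between 2.37 and 5.71 FPKM in TG 3, and at most 0.221 FPKM elsewhere.

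At the triad, where the surface membrane meets the calcium store, *Ryr1* (the release channel) had 2.91 FPKM in TG 3 and between 0.0548 and 0.114 FPKM in the other 6. *Cacna1s*, the voltage sensor that opens it, had 1.499 FPKM in TG 3 and 0.0109 in TG 2, and was listed at 0 in the other 5. Among energy genes, *Ckm*, the cytosolic creatine kinase, had 0.0586 FPKM in CTR 1, 0.258 in CTR 3, 0.114 in TG 1 and 0.486 in TG 2, against 92.5 in TG 3, and was listed at 0 in CTR 2 and CTR 4. It exceeded *Ckmt2*, the creatine kinase of muscle mitochondria, by 36.9 times in TG 3. *Mb*, the oxygen store myoglobin, had 12.2 FPKM in TG 3 and at most 0.281 elsewhere. *Pygm*, which breaks down glycogen, had 17.9 FPKM in TG 3 and at most 0.419 elsewhere, while *Ampd1*, the muscle AMP deaminase, had 3.89 FPKM in TG 3 and between 0.223 and 0.482 elsewhere. *Ppp1r3a*, which targets phosphatase to glycogen, had 0.848 FPKM in TG 3.

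*Car3*, a carbonic anhydrase abundant in muscle and in fat, was listed at 0 in CTR 1, CTR 2 and CTR 4, and had 0.0639 FPKM in CTR 3, 0.0661 in TG 1 and 0.184 in TG 2, against 86.5 in TG 3. The ubiquitin ligases of muscle wasting differed from each other. *Trim63* (MuRF1) had 0.937 FPKM in TG 3, at most 0.0247 in the other 6 papillomas, and *Fbxo32* (atrogin-1) had 1.16, 1.19, 1.53 and 1.12 FPKM in CTR 1 to CTR 4, 0.638 in TG 1 and 0.970 in TG 2, against 4.16 in TG 3. For *Fbxo32* TG 3 was thus 2.73 times the highest other value, against 37.9 times for *Trim63*.

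The 3 TG and 4 CTR papillomas were then set against each other with limma, on log2(FPKM + 0.5), a scale that understates the change of low genes, for the 12299 genes whose mean reached 0.5 FPKM. After Benjamini-Hochberg adjustment 0.0% of the genes passed in each direction, and at an unadjusted p under 0.05 4.86% were higher and 1.96% lower in TG. This split, 598 against 241 genes, was 495 against 439 with upper-quartile scaling and 394 against 561 with quantile normalization. Of the 50 members 31 passed the expression minimum, most of them through TG 3 alone. 0 members passed the adjusted threshold and 0 had an unadjusted p under 0.05. The unadjusted count was 17 of 33 without TG 1, 9 of 33 without TG 2, 4 with a pseudocount of 0.1 and 2 with a replicate block, all higher in TG, and 0 of these passed the adjusted threshold. Over all genes tested, the counts higher in TG were 824 of 12323, 595 of 12298, 604 of 12299 and 505 of 12299. Since most of these members passed the minimum through TG 3, from which the list was drawn up, their counts are no test. Over all 50 the median log2 difference of TG minus CTR was 1.08, beside 0.01 over all genes, and without TG 3 it was 0.02. The group medians of this difference were 1.80 for fast-fiber, 1.21 for sarcomere, 0.84 for metabolism and ligase, 0.77 for triad, 0.37 for embryonic, 0.21 for slow-fiber and 0.16 for regulator genes. Without TG 3 they were 0.19 for fast-fiber, 0.04 for sarcomere, -0.0056 for metabolism and ligase, 0.02 for triad, 0.0065 for embryonic, -0.06 for slow-fiber and 0.00 for regulator genes, so that the slow-fiber and the metabolism and ligase medians turned sign. The SD among TG papillomas was larger than the distance between TG and CTR means for *Acta1* (84.3 ± 144 FPKM, SD, n = 3, against 0.235 ± 0.117 FPKM, SD, n = 4) and *Mylpf* (26.6 ± 43.1 FPKM, SD, n = 3, against 1.98 ± 0.644 FPKM, SD, n = 4).

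**Figure D3:**
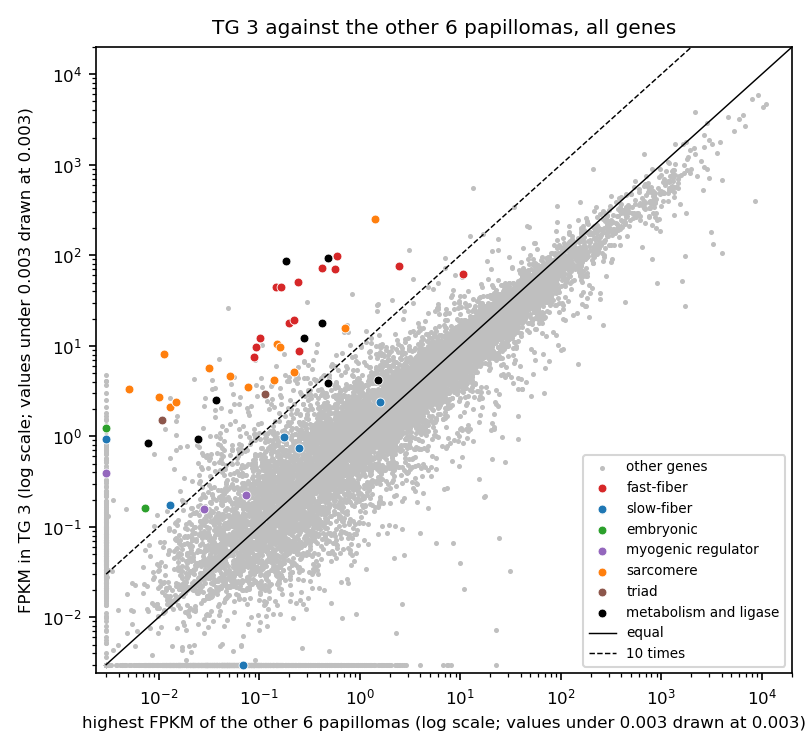
FPKM in TG 3 (vertical) against the highest FPKM of the other 6 papillomas (horizontal) for all genes, both axes logarithmic, with values under 0.003 drawn at 0.003 and the 50 skeletal muscle genes colored by role. Most fast-fiber, sarcomere and metabolism genes lie above the dashed line of 10 times, and *Tnni2*, *Tnni1* and *Fbxo32* lie nearer the line of equality.

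Without TG 3, the 4 CTR papillomas were compared with TG 1 and TG 2, which had not been used to choose the genes for being high. Only *Tnni2*, *Mylpf*, *Tnni1* and *Fbxo32* then reached a mean of 0.5 FPKM. All 4 had a lower mean in TG, with log2 differences of -0.54 for *Tnni2* (standard error 0.27), -0.43 for *Fbxo32* (standard error 0.21), -0.16 for *Tnni1* and -0.14 for *Mylpf*, and limma's adjusted p lay between 0.592 for *Tnni2* and 0.951 for *Mylpf*. In that comparison 0.142% of 11990 genes were called.

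The traces outside TG 3 were not evenly spread. Leaving aside those 4 genes, whose mean without TG 3 reached 0.5 FPKM, and *Myl3*, which is at 0 in TG 3, 45 members remained. Their summed FPKM, as a share of that in TG 3, was 0.156%, 0.238%, 0.307% and 0.285% in CTR 1 to CTR 4, 0.331% in TG 1 and 0.715% in TG 2. The intervals implied 256 reads over these 45 genes in TG 2, 193 in TG 1 and between 88 and 179 in each CTR papilloma, with TG 1 and CTR 3 sequenced more deeply. TG 2 had the highest of the 6 values for 24 of the 50 members, beside 19.5% of all genes with signal. TG 1 and TG 2 both exceeded every CTR papilloma for 7 of the 50, beside 9.03% of all genes. These were *Myh2*, *Actn3*, *Tnnt3*, *Tnnc2*, *Actn2*, *Smpx* and *Car3*. Few reads decide several of them. *Smpx* had about 0.4 implied reads in each of CTR 3, TG 1 and TG 2, and *Car3* had 2 in both CTR 3 and TG 1. For *Tnnc2* there was 1 implied read in CTR 1, 2 in TG 1 and 3 in TG 2. With no minimum on expression, a fit chosen after seeing the data, 48 members could be tested on these 6 papillomas and 0 passed the adjusted threshold. 9 had an unadjusted p under 0.05, all higher in TG, beside 5.62% of all genes higher and 3.61% lower. The lowest limma adjusted p among members was 0.270, for *Myh2* (log2 difference 0.17, standard error 0.04). At 0.0881 FPKM in TG 1 and 0.0854 in TG 2 that gene was at a level of few reads, and reads can be shared with *Myh1*.

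Other genes of striated muscle, listed by role and not by how they moved, followed the members in part. Since 0 of all 12299 genes passed the adjusted threshold, the counts of passing genes given per list say nothing particular to a list. Of 14 further genes of the triad and of calcium handling, all 14 were highest in TG 3, beside 41.4% of all genes, 10 were at least 2 times above the other papillomas, beside 13.0% of all genes with signal in TG 3, and of the 5 tested 0 passed the adjusted threshold. *Tmem38a*, a potassium channel of the reticulum, had 5.74 FPKM in TG 3 and between 0.941 and 1.98 elsewhere. *Atp2a2*, the calcium pump of slow fibers and of most other cells, had 131 FPKM in TG 3 and between 59.98 and 119 elsewhere, and *Casq2*, the slow and cardiac calsequestrin, had 4.09 FPKM against 1.14 to 3.85. At the low end *Stac3* and *Jph1*, which help couple the triad, had 0.850 and 1.00 FPKM in TG 3.

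Of 24 other sarcomere genes, all 24 were highest in TG 3 and 13 were at least 10 times above the other papillomas, beside 3.5% of all genes with signal in TG 3. 6 of them could be tested and 0 passed. The tropomyosins *Tpm1*, *Tpm3* and *Tpm2*, which many cells use, had 230, 122 and 95.9 FPKM in TG 3, and at most 91.1, 113 and 92.5 elsewhere. *Myh13*, the heavy chain of eye muscles, had 0.0602 FPKM in TG 3, and *Trim55* (MuRF2) 0.190. Of 16 energy genes 15 were highest in TG 3, and of 13 tested 0 passed. *Eno3*, the muscle enolase, had 24.3 FPKM in TG 3 and between 0.767 and 1.48 elsewhere, *Gys1*, the glycogen synthase of muscle and many other tissues, had 11.2 FPKM against 4.63 to 7.06, and *Pfkm*, the muscle phosphofructokinase, had 10.03 FPKM against 1.68 to 3.10. *Ucp3*, a mitochondrial carrier of muscle, had 0.574 FPKM in TG 3. The exception was *Fbp2*, the muscle fructose bisphosphatase, with 2.59, 9.07, 11.3 and 4.83 FPKM in CTR 1 to CTR 4, 0.469 in TG 1, 0.223 in TG 2 and 1.19 in TG 3. All TG values lay below all CTR values, and the log2 difference was -2.63 (standard error 0.48, limma adjusted p = 0.498).

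The genes of the dystrophin complex, the neuromuscular junction and muscle progenitors were low. 9 of 10 dystrophin complex and sarcolemma genes were highest in TG 3, beside 41.4% of all genes with any signal. Of these 10, 4 could be tested, of which 0 passed. *Dag1*, which many cells use, had 22.1 FPKM in TG 3, *Sgcb* 3.24, *Dmd* itself 0.566 and *Sgcd*, the exception, 0.411 against at most 0.463 elsewhere. Of 10 genes of the neuromuscular junction 6 were highest in TG 3, beside the same 41.4%. There 7 of the 10 were under 0.5 FPKM, and *Chrne* and *Musk* were listed at 0. *Chrnb1*, *Chrna1* and *Scn4a*, subunits of the acetylcholine receptor and the muscle sodium channel, had 2.12, 0.648 and 0.582 FPKM in TG 3. For *Chrna1* the other papillomas lay between 0.492 and 1.95. Of 10 satellite cell and myoblast genes 9 were under 0.5 FPKM in TG 3, where *Myf5* and *Mymk* were listed at 0 and *Chodl* and *Pax3* had 0.178 and 0.130. *Itga7*, an integrin, had 2.52 FPKM in TG 3 and between 2.39 and 5.74 elsewhere. 0 of the 2 junction genes and 0 of the 1 progenitor gene tested passed.

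**Figure D4:**
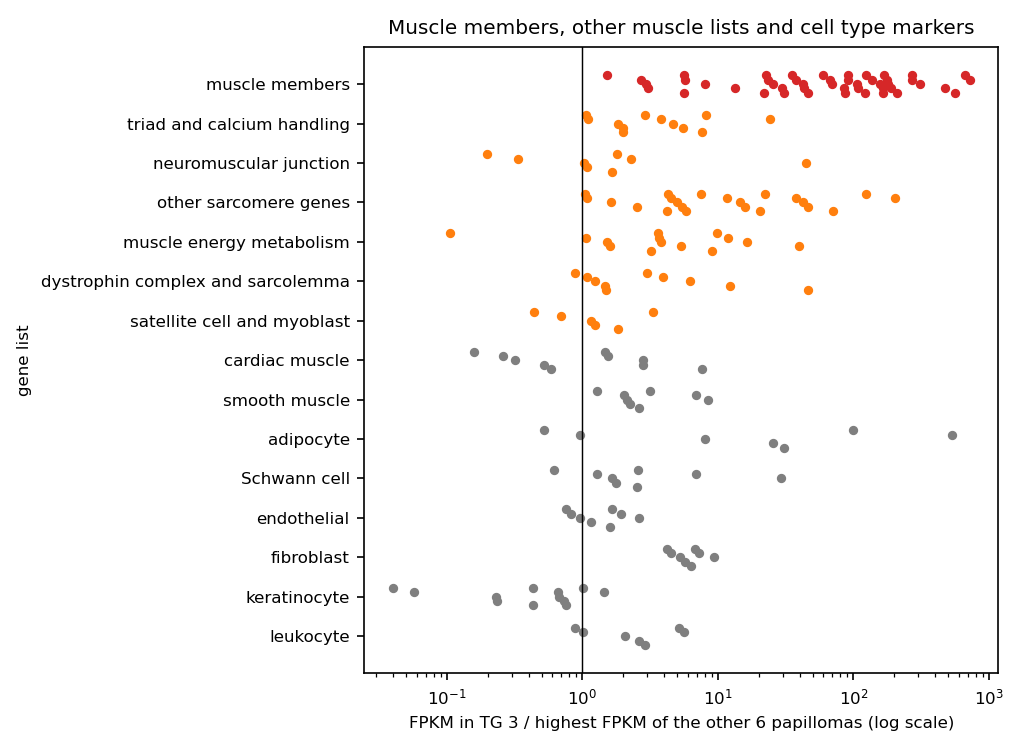
FPKM in TG 3 divided by the highest FPKM of the other 6 papillomas (logarithmic axis), 1 point for each gene above 0 in TG 3 and in at least 1 other papilloma, for the 50 muscle members (red), other muscle lists (orange) and cell type markers (gray, members left out). Muscle members reach the highest ratios, satellite cell genes lie near 1, and the adipocyte and fibroblast markers also lie mostly to the right of 1.

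Markers of other cell types were examined beside the muscle genes, and their part in the result was not tested. Beside each count of markers highest in TG 3 stands the share over all genes with any signal, 41.4%. As a sum, the cardiac markers did not follow. 5 of 10 were highest in TG 3 and their summed FPKM of 13.1 in TG 3 lay within the range of the rest, 9.37 to 23.9, with *Ryr2* and *Myh6* at 0.0198 and 0.0560 FPKM in TG 3. The leading ones, *Tnnt2*, *Nppb* and *Tnni3*, had 8.37, 1.66 and 1.45 FPKM in TG 3, inside or below the range of the others. In TG 3, 3 of the 10 were at least 2 times above the rest, beside 13.0% of all genes with signal there. These were *Myh6*, *Mybpc3* with 0.0760 FPKM and *Actc1* with 0.879 FPKM. All 9 smooth muscle markers, which include the member *Des*, were highest in TG 3, with a sum of 100.5 against 19.8 to 41.1. *Acta2*, *Smtn* and *Tagln* had 35.9, 19.7 and 19.2 FPKM, and *Lmod1* and *Synpo2* 0.618 and 0.984.

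Most fat and connective tissue markers were also higher in TG 3. 8 of 10 adipocyte markers, among them the member *Car3*, were highest there. Of the 10, 7 were at least 10 times above the rest, beside 3.5% of all genes with signal in TG 3. *Cfd* (adipsin) had 26.0 FPKM in TG 3 and at most 0.0484 elsewhere, *Plin1* and *Lep* had 0.824 and 0.431, and *Plin1* was listed at 0 in the other 6. *Fabp4* had 1680 FPKM in TG 3 and between 1374 and 3228 elsewhere, so the summed list (1810 in TG 3, 1379 to 3237 in the others) did not follow. All 8 fibroblast markers were highest in TG 3, with a sum of 707 against 75.6 to 132. *Col1a2*, *Col1a1* and *Col3a1* had 209, 206 and 153 FPKM, and *Pdgfra* and *Fbn1* 3.52 and 9.59. Of 8 Schwann cell markers 7 were highest in TG 3 (sum 24.8 against 7.75 to 11.3), with *Pmp22* and *Mbp* at 8.77 and 8.36 FPKM and *S100b* and *Sox10* at 0.340 and 0.605. Of 8 endothelial markers 5 were highest there (sum 34.3 against 10.7 to 27.5), with *Pecam1*, *Cdh5* and *Emcn* at 9.64, 6.32 and 5.81 FPKM and *Tek* and *Cldn5* at 1.28 and 1.33. Only 1 of the 8 was at least 2 times above the rest, beside 13.0% of all genes with signal in TG 3. *Emcn*, *Tie1* and *Esam* were highest in TG 1.

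Of 8 leukocyte markers 6 were highest in TG 3 (sum 216 against 54.3 to 84.4), with *H2-Aa*, *Lyz2* and *Cd68* at 118, 54.1 and 18.2 FPKM, *Cd3e* at 0.509 and *Cd79a* listed at 0. *Cd68* and *Cd79a* were not among the 6. *Cd68* had 15.4 to 20.6 FPKM elsewhere, and *Cd3e* reached 0.508 elsewhere, nearly its value in TG 3. Of 12 keratinocyte markers 2 were highest in TG 3. These were *Krt5*, with 1783 FPKM against 942 to 1777 elsewhere, and *Dsg3*, with 257 against 69.6 to 179. The sum of the 12 markers, 18814 FPKM in TG 3, lay below the rest, 24643 to 39245. *Krt6a*, *Krt14* and *Krt16* had 5372, 4717 and 4383 FPKM in TG 3, each below its lowest value elsewhere (5877, 5494 and 6375). *Ivl* and *Trp63* had 36.4 and 42.1 FPKM, within the range of the others. The differentiation markers *Krt10*, *Krt1* and *Lor*, named after their values were seen, had 181, 133 and 366 FPKM in TG 3 and at least 917, 187 and 618 elsewhere. 0 genes of any of these marker lists passed the adjusted test, as was so for all 12299 genes.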

How the data were processed

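Gene expression in 7 papillomas, 4 CTR and 3 TG by the sample labels, was measured by polyA+ RNA-seq. Per the submitters' processing notes, TopHat2 2.0.4 (with Bowtie 0.12.7 and SAMtools 0.1.16) placed the 40-base reads on the mouse genome, GRCm38/mm10, and Cufflinks 1.3.0 gave the levels. The authors deposited FPKM values with intervals, per the file headers. Locus starts were shifted by 1 to count from 1. Entries of 1 symbol were summed, and 162 symbols with a failed estimate were left out. Reads behind a value were inferred from the interval as the square of 2 times the value over the half-width. Between 70.0% and 72.0% of values under 50 reads came out within 0.1 of a whole number, so depths are approximate.

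R 4.3.3 with limma 3.58.1 and Python 3.11.15 were used. FPKM + 0.5 was put on the log2 scale and fitted with a variance trend, with Benjamini-Hochberg adjustment and a threshold of 0.05. The fit was tested on simulated data. The members and lists were chosen with earlier results of these data known. Named genes were all members, *Nanog*, and in each other list the 3 highest and 2 lowest in TG 3. In 2 lists 1 gene under this rule is not reported here. Any gene outside this rule was named after its values were seen. Alternatives were pseudocounts, filters, scalings, quality weights, a replicate block and leaving out each papilloma. Motif shares over all genes used 1 promoter a gene, the one with the lowest coordinate. Member promoters were those nearest the deposited gene start, so the rules of choice differ. Promoters, GENCODE transcripts and the files are on GRCm38.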

Additional observations from a re-analysis of the deposited data

Results flagged for a closer look

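Among the 4 CTR papillomas, 1 value lay far from the other 3 by Dixon's test for 14 members and for *Nanog*. Chance gives about 1 in 20 such values. This rate does not hold for 9 of the members, for which the other 3 CTR values were listed at 0. There any value above 0 is flagged, so a few reads decide them. *Nanog* had 12.7 FPKM in CTR 3, where the next value was 3.34. CTR 3 also held the outlying value of *Acta1* (0.409 FPKM, next 0.197), *Fbxo32* (1.53, next 1.19), *Car3* (0.0639), *Smpx* (0.0370), *Myom2* (0.00737) and *Myh8* (0.000939). In CTR 4 these were *Des* (0.601 FPKM, next 0.311), *Ttn* (0.00544, next 0.00332), *Myh7* (0.0131) and *Ppp1r3a* (0.00780), in CTR 2 *Myh1* (0.198 FPKM, next 0.0587) and *Trim63* (0.0247), and in CTR 1 *Tnnc2* (0.0832 FPKM) and *Ckmt2* (0.0376).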

How the results depend on the processing

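Of 78 values computed under an alternative, 67 moved by less than the spread or stayed within 1.5 times the count. For the median of the members TG 3 itself sets that spread, and this median fell from 1.08 to 0.0231 without TG 3. The number of members called stayed at 0 in every alternative that was run. Sample quality weights gave 49 genes higher and 36 lower over all genes (1161 and 1248 at an unadjusted p under 0.05), and the cause was not tested. Leaving out each papilloma in turn gave between 0 and 9 genes higher and between 0 and 8 lower, with the highest counts without TG 3, 2 higher without TG 1 and 1 higher without CTR 3. The median log2 difference of the members ranged from 0.0231 without TG 3 to 1.62 without TG 1, and was 1.66 with a pseudocount of 0.1 and 0.80 with 1. Without TG 3, a pseudocount of 0.1 gave 4 genes higher, a pseudocount of 1 gave 4 lower, and no filter gave 2 higher and 0 lower, where more genes were adjusted for. 105 genes were at least 5 times above the other papillomas in TG 3, 25 of them members, against 61 and 24 at 10 times. With upper-quartile scaling 52 genes passed the bound of 10 times, 22 of them members. Same-numbered CTR and TG papillomas deviated from their group means with correlations of -0.186, 0.0431 and -0.146, so the numbers did not pair them. With the replicate block 0 genes were higher, 0 lower and 0 members called, the median stayed at 1.08, and 505 genes were higher and 170 lower at an unadjusted p under 0.05. The approximate depth limits the regulators and slow genes, which rest on 0 to 39 reads in TG 3.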

Other observations

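Outside the gene lists, 34 further genes had at least 5 FPKM in TG 3 and at least 10 times the highest value of the other 6 papillomas. They were named after their values were seen. 3 of them are known from striated muscle: *Fhl1*, a LIM-domain protein, with 27.9 FPKM in TG 3, *Pdlim3*, a Z-disc protein, with 7.05, and *Apobec2*, with 6.05. Others encode chemokines and cytokines of inflammation, among them *Ppbp* with 558 FPKM, *Cxcl5* with 116, *Cxcl3* with 94.3 and *Il1b* with 71.9. *Csf3r* and *Retnlg*, which neutrophils express, had 17.0 and 14.0 FPKM. The muscle genes were therefore not alone in being high in that papilloma.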
